A study of Mus musculus with 6 samples.

Results

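The antioxidant, metallothionein and heme response was followed through 10 genes, chosen by name: Mt1, Mt2, Hmox1, Slc7a11, Gclc, Gclm, Nqo1, Txnrd1, Gpx2 and Gpx3. All 10 were found among the 34745 genes of the table, and all 10 passed the filter on low counts. RNA sequencing counted transcripts in colon tissue in 3 libraries labelled TRPC-hepta knockout and 3 labelled TRPC-hepta control. The title of the series says that the knockout mice lack all 7 TRPC proteins, which are calcium-permeable cation channels. All mice were male and age-matched, and all had received DSS (dextran sulfate sodium, which injures the colonic epithelium) for 6 days before they were killed. The labels give no age, no strain, no deleted exons and no animal for each library, so the spread behind every p-value is that between these 6 samples and may be technical. No mice without DSS were analysed here, so the response to DSS itself was not measured.

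Cells meet oxidants with a set of genes that the transcription factor NRF2 (gene Nfe2l2) switches on when its inhibitor KEAP1 releases it. Its targets import cystine, make glutathione from cysteine, glutamate and glycine, recycle thioredoxin and reduce quinones and peroxides. Heme oxygenase breaks down heme, which is released from damaged red blood cells and other proteins, into biliverdin, carbon monoxide and iron. Metallothioneins are small cysteine-rich proteins that bind zinc and copper, and are induced by metals through the factor MTF1 and by glucocorticoids and cytokines. In the intestine, NQO1 and GPX2 are known as enzymes of the epithelium, and HMOX1 as an enzyme of macrophages.

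The knockout libraries held 13816295 to 15505327 counted reads and the control libraries 16819662 to 17584992. The knockout libraries differed more among themselves than the controls did. A weighted sum of knockout replicates 1 (weight 0.497) and 2 (weight 0.595) came close to the counts of replicate 3. The median squared deviation from that sum was 1.19 times the counting variance over 15800 genes, and 3.1 to 4.23 times when a control library was fitted in the same way. For the 10 genes, replicate 3 had 0.951 to 1.09 times the reads of that sum and lay between replicates 1 and 2 for all of them, as it did for 72.1% of all genes tested. It may thus not be an independent library, and calls are also given without it. The epithelial marker Epcam was read at 998.2 to 1920.9 CPM (counts scaled to library totals after TMM) in the knockout libraries and 1913 to 2111.1 CPM in the control libraries. All 8 smooth muscle markers had negative fold changes, with a summed level of 1704 to 3641.1 CPM in the knockout and 8164.9 to 11602.6 CPM in the control. At an adjusted p under 0.05, edgeR called 4 of them lower, beside 0.67% of all genes, and 0 without knockout replicate 3. DESeq2 called 8, beside 8.11% of all genes in either direction. Of the deleted genes, Trpc1 had 6.57 to 9.97 CPM in the knockout and 7.54 to 11 CPM in the control, Trpc4 had 1.09 to 5.12 CPM in the knockout and 2.37 to 5.25 CPM in the control, and Trpc6 had 0.219 to 2.49 CPM in the knockout and 1.11 to 1.58 CPM in the control. Trpc7 had 0 to 9 reads per knockout library and 5 or 6 per control library, and no library of the 6 had a read of Trpc2 or Trpc5. Since the deleted exons are unknown, counts over whole genes do not check the labels. In bulk tissue, fewer cells of a type and less RNA per cell cannot be told apart.

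The 10 genes did not move as a block. By fold change, 5 were higher and 5 lower in the knockout, with a median log2 fold change of 0.90 (0.01 over all 15819 genes tested). Slc7a11 was the single gene past the threshold (quasi-likelihood test of edgeR with Benjamini-Hochberg adjustment, adjusted p under 0.05), against a background of 1.76% of all genes tested in either direction, of which 1.09% were higher in the knockout and 0.67% lower. Of the 10, 6 (Mt1, Mt2, Hmox1, Slc7a11, Nqo1 and Gpx3) had an unadjusted p below 0.05, and so had 16.0% of all genes. The groups did not overlap for 4 genes, with Slc7a11, Hmox1 and Gpx3 higher and Nqo1 lower in each knockout library; such separation was seen for 21.6% of all genes tested. Since these 10 genes were chosen by name with earlier results known, neither count was tested. Without knockout replicate 3, edgeR called 0 of the 10 and 0.093% of all genes, and the same 6 genes that had an unadjusted p under 0.05 above were called by DESeq2 (8.11% of all genes) and by edgeR without knockout replicate 2 (11.2%). The other alternatives called 0 to 2 of the 10. Over all genes they called 1.99% without knockout replicate 1, 0.191%, 0.123% and 0.179% without control replicates 1, 2 and 3, and 0.0569% with a replicate block. They called 1.68% with RLE factors, 1.39% with no filter on low counts, 1.52% with limma on log2(FPKM + 1) and 1.81% with limma on log2(FPKM + 0.1). An exact two-sided permutation test on single genes cannot go below 0.1 with 3 against 3 libraries, and it gave 0.1 for each of the 4 separated genes.

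**Figure D1:**
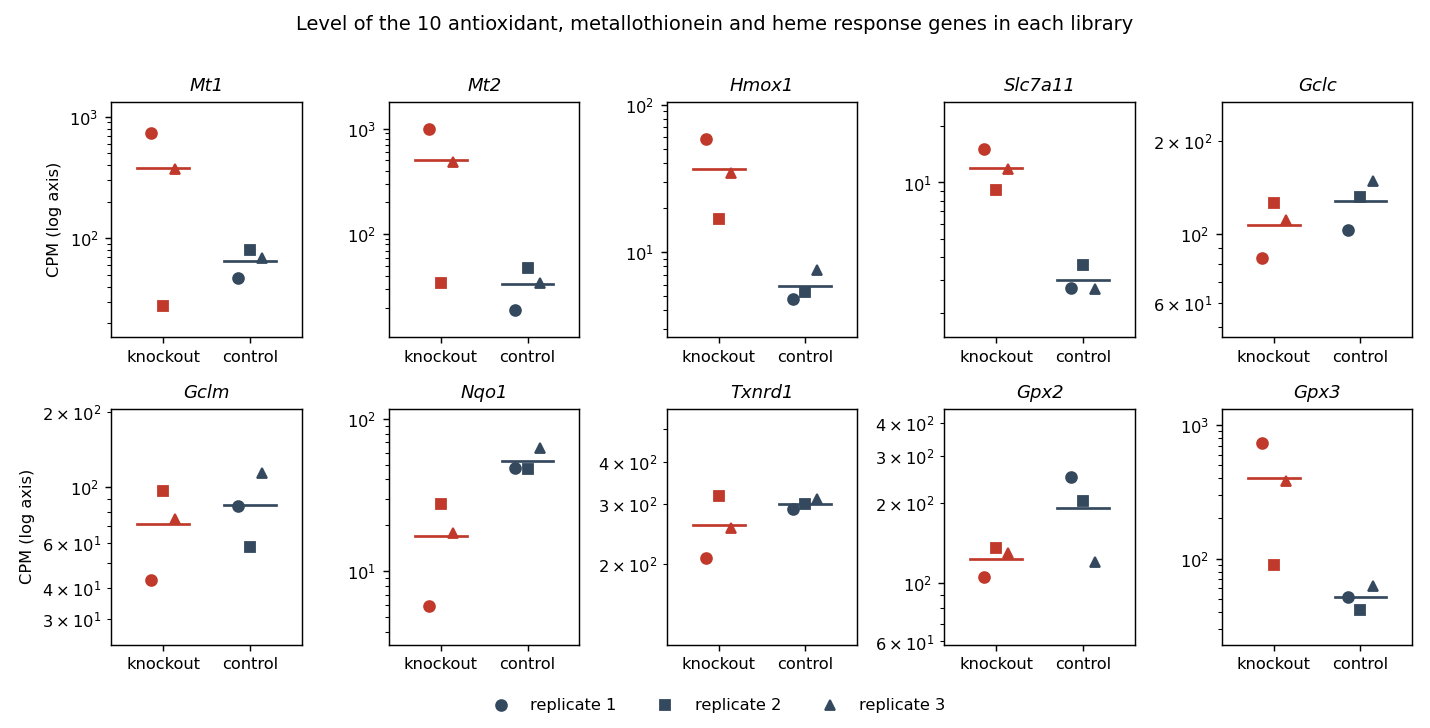
CPM (log axis, scaled separately for each gene) of the 10 genes in each library, with knockout libraries on the left and control libraries on the right of each panel; symbols mark replicates and lines the arithmetic mean of 3. Slc7a11, Hmox1 and Gpx3 stood higher in each knockout library than in any control library, Nqo1 stood lower, and knockout replicate 1 (circles) was the most extreme knockout library for these 4 genes and for both metallothioneins.

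Slc7a11 is the transporter subunit that exchanges glutamate for cystine, which cells reduce to cysteine, the limiting amino acid for glutathione. It rose 4.01-fold in the knockout. It reached 15.1, 9.12 and 11.8 CPM in knockout replicates 1, 2 and 3, against 2.72, 3.59 and 2.67 CPM in control replicates 1, 2 and 3. The lowest knockout library was thus above the highest control library, and the spread among knockout libraries (1.65-fold between replicates 1 and 2) was the smallest among the genes that were higher. This is a log2 fold change of 2.0 ± 0.28 (SE, edgeR, adjusted p = 0.0287). These levels rest on 125 to 230 reads per knockout library and 44 to 62 per control library. The direction held whichever library was left out (log2 fold change 1.8 to 2.16), but the call did not: adjusted p was 0.159 without knockout replicate 3, and 0.15, 0.121 and 0.123 without control replicates 1, 2 and 3. It was also lost with a replicate block (adjusted p = 0.135) and with limma on log2(FPKM + 1), a scale that shrinks the change of a gene below 1 FPKM, where the difference was 0.59 log2 units (adjusted p = 0.104). By FPKM, which scales reads for transcript length as well as library total, Slc7a11 was the least abundant of the 10 genes in both groups, at 0.796 FPKM on average in the knockout and 0.186 FPKM in the control.

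Slc7a11 (ENSMUSG00000027737) lies on the minus strand of GRCm38 chromosome 3, at 49892526 to 50443614. That is 3.7 Mb from Trpc4, one of the deleted genes, and an effect of sequence linked to the deleted locus cannot be told apart from an effect of the missing channels. Its promoter is shown because it was the one member past the threshold. The sequence is from RefSeq (GRCm38.p6, chr3:50443584-50443863, minus strand), from 250 bases before to 30 bases after the start site. Capitals mark 2 matches to TGATGNAAN, the C/EBP-ATF response element that the amino acid response factor ATF4 binds, at positions -66 on the plus strand of the gene and -48 on the other.
Slc7a11: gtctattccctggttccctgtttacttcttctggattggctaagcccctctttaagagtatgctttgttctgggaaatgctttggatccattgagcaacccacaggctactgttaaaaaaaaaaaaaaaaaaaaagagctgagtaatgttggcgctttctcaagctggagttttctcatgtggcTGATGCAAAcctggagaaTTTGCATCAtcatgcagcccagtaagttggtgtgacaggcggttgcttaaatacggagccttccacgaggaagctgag
Both matches read TGATGCAAA on their own strand and do not overlap each other. Of 32851 promoter windows of 300 bases, 3.95% held at least 1 match on either strand and 0.07% at least 2. This motif was searched after the sequence had been read. The antioxidant response element core TGACNNNGC had no match in this window.

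Glutamate-cysteine ligase, which joins glutamate to the cysteine obtained from cystine, was not past the threshold in either subunit. Gclc is the catalytic and Gclm the modifier subunit of this enzyme, the first step of glutathione synthesis. Gclc stood at 83.7, 126.4 and 111.3 CPM in the knockout replicates, against 103.4, 131.6 and 148.8 CPM in the control replicates. Gclm stood at 42.8, 97.2 and 75.2 CPM in the knockout, against 84.7, 57.9 and 113.6 CPM in the control. The groups overlapped for both genes, with knockout replicate 1 the lowest library of all 6. Their log2 fold changes were -0.26 ± 0.21 and -0.25 ± 0.36 (SE, edgeR, adjusted p = 0.621 and 0.79). The sign for Gclm rested on single libraries, since it was 0.00854 without knockout replicate 1 and 0.00437 without control replicate 3. Gclc (ENSMUSG00000032350) is on chromosome 9, 77754535 to 77794485, and Gclm (ENSMUSG00000028124) on chromosome 3, 122245557 to 122270732. Gm17494, on the opposite strand, and Gm6061, a pseudogene, overlap Gclm and had 0.457% and 0.417% as many reads.

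Hmox1, the inducible heme oxygenase, was on average 6.2-fold higher in the knockout by the fitted fold change. It stood at 58.3, 16.7 and 34.3 CPM in the knockout replicates, against 4.76, 5.38 and 7.48 CPM in the control replicates. The lowest knockout library was well above the highest control library. On the log2 scale the fold change was 2.63 ± 0.47 (SE, edgeR), with an adjusted p of 0.0519, just outside the threshold. It was past it with no filter on low counts (0.036), without knockout replicate 1 (0.0436) and without knockout replicate 2 (0.00401), and far from it without knockout replicate 3 (0.198). DESeq2 gave an adjusted p of 3.35e-06 for 3 against 3 libraries. Hmox1 (ENSMUSG00000005413) is on chromosome 8, 75093591 to 75100596.

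Macrophage markers moved with Hmox1, in that their sum was also higher in each knockout library. Of 10 such genes, all had positive fold changes, and edgeR called 1 higher, the lysozyme gene Lyz2, beside 1.09% of all genes. DESeq2 called 7, beside 8.11% of all genes in either direction. Lyz2 rose to 122.2 ± 5.6 CPM in the knockout, against 68.5 ± 6.27 CPM in the control (SD, n = 3 each, edgeR adjusted p = 0.0352). Unlike Hmox1, it was nearly level across the knockout replicates, at 123, 127.3 and 116.2 CPM. C1qa, a complement subunit, stood at 56.2, 38.5 and 46.4 CPM in the knockout replicates and 18.3 to 31.7 CPM in the control libraries (edgeR adjusted p = 0.138). The summed level of the 10 macrophage markers was 277.1 to 397.5 CPM in the knockout libraries and 137.3 to 186.3 CPM in the control libraries. Per 1000 CPM of these markers, a ratio chosen after the values were seen, Hmox1 stood at 147, 60.3 and 105 CPM in the knockout replicates, against 27.9, 39.2 and 40.1 CPM in the control replicates. The groups did not overlap on this scale, and the part of macrophages in the Hmox1 result was not tested. Slc7a11 had 37.9, 32.9 and 36.3 CPM per 1000 CPM of the same markers in the knockout replicates and 15.9, 26.1 and 14.4 CPM in the control replicates. Relative to 10 neutrophil markers its groups overlapped, but the control sum of those markers (62.2 to 128.2 CPM) was mostly Ly6g (58 to 124.8 CPM). S100a9, another of them, stood at 0 to 0.347 CPM in the control and 14.4 to 118.2 CPM in the knockout. The ratio was not examined without Ly6g, and the part of neutrophils in the Slc7a11 result was not tested.

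The 2 metallothionein genes had the highest mean FPKM of the set in the knockout and the widest spread between knockout libraries. Mt1 reached 741.0, 27.7 and 373.9 CPM in knockout replicates 1, 2 and 3, against 46.6, 79.9 and 69.2 CPM in control replicates 1, 2 and 3. Knockout replicate 2 was below every control library and the others were far above. Mt2 stood at 1000.6, 34.7 and 478.3 CPM in the knockout, against 19.2, 47.5 and 34.2 CPM in the control. Here knockout replicate 2 lay inside the control range. Knockout replicate 1 exceeded replicate 2 by 26.8-fold for Mt1 and 28.9-fold for Mt2. The log2 fold changes were 2.55 ± 0.98 for Mt1 and 3.91 ± 1.09 for Mt2 (SE, edgeR), and neither was past the threshold (adjusted p = 0.273 and 0.145). Without knockout replicate 2 both were past it (adjusted p = 0.00583 and 0.00467), where 11.2% of all genes were. Without knockout replicate 3 they had log2 fold changes of 2.56 and 3.94 (adjusted p = 0.541 and 0.36).

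The proportion of the 2 genes was steadier than their level. Mt2 had 1.35, 1.25 and 1.28 reads per read of Mt1 in knockout replicates 1, 2 and 3, against 0.412, 0.595 and 0.494 in control replicates 1, 2 and 3. The mean was 1.29 ± 0.0502 in the knockout and 0.50 ± 0.0918 in the control (SD, n = 3 each). The SD and n count knockout replicate 3, which may not be independent of the others; without it the knockout ratios were 1.35 and 1.25. The groups did not overlap, knockout replicate 2 included, although its Mt2 level was inside the control range. The exact two-sided permutation p over all 6 libraries was 0.1, the smallest that 3 against 3 allows, and the ratio was chosen after the values were seen. The genes are close relatives, and the sources used here do not say how reads that fit both were counted, so the ratio is uncertain to that extent.

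**Figure D2:**
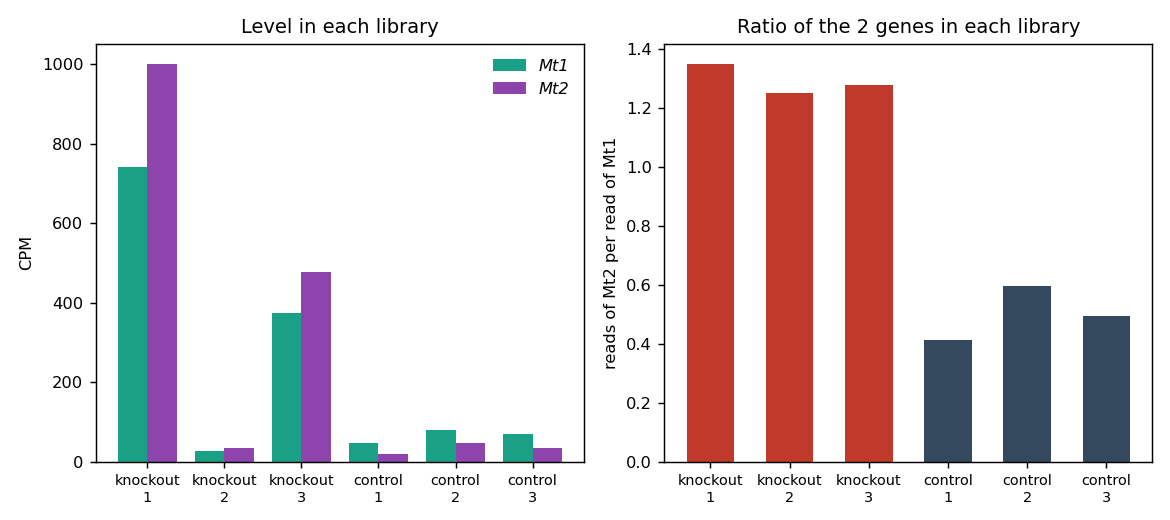
Left: CPM of Mt1 and Mt2 in each library. Right: reads of Mt2 per read of Mt1 in each library, with knockout libraries in red and control libraries in dark grey. Levels in the knockout libraries span 27.7 to 1000.6 CPM, while their ratios stay between 1.25 and 1.35, above the control range of 0.412 to 0.595.

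Mt1 (ENSMUSG00000031765, 94179089 to 94180325) and Mt2 (ENSMUSG00000031762, 94172618 to 94173567) lie side by side on the plus strand of chromosome 8, after Mt4 (94137204 to 94139031) and Mt3 (94152607 to 94154148). Gm45774, annotated on the opposite strand across the start of Mt2, was not analysed here. Their promoters are shown because the genes are neighbours that differ in proportion between the groups. The RefSeq sequences (GRCm38.p6) run from 250 bases before to 30 bases after the start site, on the plus strand, at chr8:94178839-94179118 for Mt1 and chr8:94172368-94172647 for Mt2. Capitals mark metal response element cores, spelled TGCACNC or TGCGCNC and searched on both strands, and in Mt2 also the antioxidant response element core TGACNNNGC.
Mt1: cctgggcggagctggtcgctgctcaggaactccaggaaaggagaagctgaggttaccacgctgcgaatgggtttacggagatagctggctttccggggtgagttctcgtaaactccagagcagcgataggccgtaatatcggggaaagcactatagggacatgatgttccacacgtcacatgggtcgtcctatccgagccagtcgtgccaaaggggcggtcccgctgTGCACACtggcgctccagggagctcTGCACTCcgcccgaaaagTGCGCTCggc
Mt2: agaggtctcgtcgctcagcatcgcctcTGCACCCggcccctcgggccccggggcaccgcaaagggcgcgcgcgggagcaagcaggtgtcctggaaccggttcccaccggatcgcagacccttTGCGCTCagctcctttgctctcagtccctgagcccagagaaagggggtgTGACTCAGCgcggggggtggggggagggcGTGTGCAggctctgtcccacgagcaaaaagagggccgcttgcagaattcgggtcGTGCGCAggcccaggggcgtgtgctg
The Mt1 window held 3 metal response cores, at -23, 3 and 21 from the annotated start site, and the Mt2 window held 4, at -223, -128, -50 and 5. At least 3 such matches were found in 1.97% of 32851 windows of 300 bases, and at least 1 in 25.7%. The antioxidant response core at -79 in Mt2 reads TGACTCAGC and overlaps none of these. That core was held by 12.4% of windows, and the Mt1 window held none. Windows end 50 bases after the annotated start site. Sequence outside them was not searched, so a lack of matches in a window is not a lack of such elements at the gene. With the wider spelling TGCNCNC, which includes all of the above and is found at least once in 51% of windows, Mt1 had 3 and Mt2 had 6. RefSeq windows were found for 8 of the 10 genes, and not for Hmox1 and Gclc. Of the other genes, Gclm had 3 metal response cores and an antioxidant response core that overlaps the first of them, and 1 of 3 Txnrd1 windows had an antioxidant response core. The Nqo1, Gpx2 and Gpx3 windows had neither.

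Mt3, the neighbour of Mt2 in the cluster and known as the metallothionein of the brain, rose to 12.6 ± 7.99 CPM in the knockout, against 1.44 ± 0.382 CPM in the control (SD, n = 3 each). It stood at 21.2, 5.4 and 11.2 CPM in the knockout replicates and at 1.48, 1.79 and 1.03 CPM in the control replicates. Its log2 fold change was 3.12 ± 0.55 (SE, edgeR, adjusted p = 0.0498), and the call was lost without knockout replicate 3 or any 1 control replicate, with RLE factors, with the replicate block and with limma at either pseudocount. Mt4 had 0 to 3 reads per knockout library and 3 to 5 per control library. Of 12 tested genes of metallothionein and zinc handling besides Mt1 and Mt2, Mt3 was the single one past the threshold, with a median log2 fold change of 0.05. Mt4 and the next genes were named after their values were seen. Mtf1, the metal-sensing activator, stood at 41.0 ± 3.57 CPM in the knockout and 43.5 ± 16.3 CPM in the control (log2 fold change -0.08, edgeR adjusted p = 0.919). Slc39a14, a zinc and iron importer, stood at 365.8, 39.8 and 189 CPM in the knockout replicates and 34.4 to 48.2 CPM in the control libraries (edgeR adjusted p = 0.173). Slc30a1, a zinc exporter, went the other way, at 44, 83 and 60.7 CPM in the knockout replicates. It stood at 91.6 to 108.7 CPM in the control libraries (log2 fold change -0.64, edgeR adjusted p = 0.259).

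Gpx3, the secreted glutathione peroxidase of plasma, followed the same order of knockout libraries. It reached 727.6, 89.6 and 383.9 CPM in knockout replicates 1, 2 and 3, against 52.0, 41.2 and 62.4 CPM in control replicates 1, 2 and 3. Each knockout library was above all controls, and replicate 1 exceeded replicate 2 by 8.12-fold. Its log2 fold change was 2.95 ± 0.70 (SE, edgeR), and Gpx3 was not past the threshold (adjusted p = 0.0986, and 0.291 without knockout replicate 3). It was past it without knockout replicate 2 (adjusted p = 0.0036) and with DESeq2 (0.00015). Gpx3 (ENSMUSG00000018339) is on chromosome 11, 54902453 to 54910377.

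Among the knockout libraries, fibroblast, endothelial, neutrophil and red blood cell marker sums had the same order, highest in replicate 1 and lowest in replicate 2. The order was not particular to them. Macrophage, crypt epithelium, smooth muscle and adipocyte sums also had it, with smaller differences, and colonocyte, goblet and squamous epithelium sums had the reverse. Single genes set some of these orders in knockout replicates 1, 2 and 3. Smoc2 made up 196.7, 10.9 and 94.3 CPM of the crypt sums of 287.6, 187.8 and 219.1 CPM. Mki67 had the reverse order (44.9, 85.3 and 61.2 CPM). Fabp4 made up 143, 24.4 and 82.8 CPM of the adipocyte sums of 230.9, 180.9 and 201.4 CPM. Lpl had the reverse order (57.7, 81.6 and 64.5 CPM). The squamous sum was mostly Sprr1a (11, 35 and 21.9 CPM), and Krt14 (0.292 to 1.38 CPM) went the other way. The summed level of 7 fibroblast markers was 3225.4, 779.9 and 1919.5 CPM in the knockout replicates and 786.6 to 1032.2 CPM in the control libraries. For 6 endothelial markers it was 60.2 to 237.9 CPM in the knockout and 68.5 to 85.6 CPM in the control. EdgeR called 0 genes of either list, DESeq2 called 1 of each and limma 0, with 4 fibroblast and 2 endothelial genes below an unadjusted p of 0.05. Over all genes, DESeq2 called 8.11% and 16.0% were below that unadjusted p. For 7 red blood cell markers the sum was 5.62 to 34.2 CPM in the knockout and 1.62 to 5.77 CPM in the control, with Slc4a1 at 0 reads in the control. All 9 tested neutrophil markers had positive fold changes, and edgeR called 4 of them, beside 1.09% of all genes called higher. The sum of all 10 was 132.9 to 790.4 CPM in the knockout and 62.2 to 128.2 CPM in the control, where Cxcr2, Retnlg and Ngp had 0 reads. Most of the control sum was Ly6g, at 58 to 124.8 CPM, against 88.9 to 446 CPM in the knockout. Per 1000 CPM of fibroblast markers, Gpx3 stood at 226, 115 and 200 CPM in the knockout replicates, against 50.3, 52.4 and 70.2 CPM in the control replicates, without overlap. Mt1 and Mt2 overlapped between the groups on that scale. The part of these cells in the levels of Mt1 and Mt2 was not tested.

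**Figure D3:**
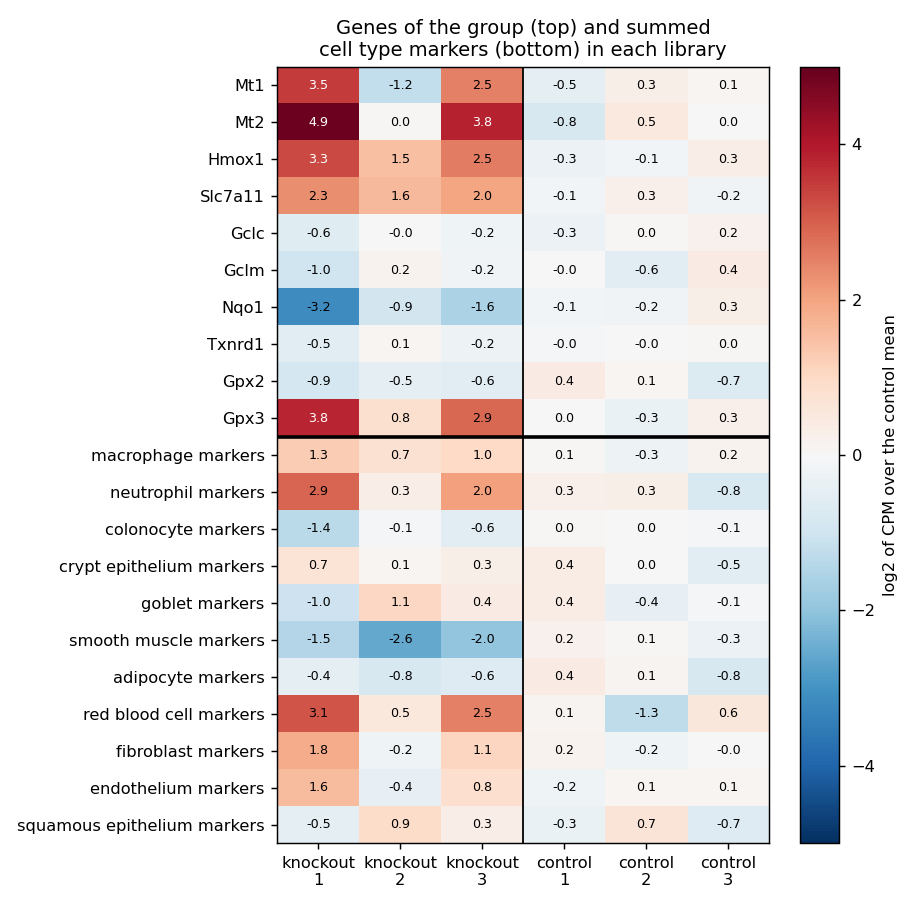
Log2 of the level in each library over the mean of the 3 control libraries, for the 10 genes (top) and for the summed CPM of each list of cell type markers (bottom), with knockout libraries in the left columns. Mt1, Mt2, Hmox1 and Gpx3 share with neutrophil, red blood cell, fibroblast and endothelial markers the highest value in knockout replicate 1 and a much lower one in replicate 2. Macrophage, crypt epithelium, smooth muscle and adipocyte sums have that order among knockout libraries too, with smaller differences. The crypt epithelium order rests on Smoc2 and the adipocyte order on Fabp4. Nqo1 and colonocyte markers are lowest in replicate 1. The control values of the neutrophil markers are mostly Ly6g.

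Nqo1, which reduces quinones with NADPH and is the textbook NRF2 target, was on average 3.09-fold lower in the knockout by the fitted fold change. It stood at 5.97, 27.7 and 17.8 CPM in the knockout replicates, against 47.9, 47.0 and 64.2 CPM in the control replicates. Each knockout library was below all controls. The fitted log2 value was -1.63 ± 0.50 (SE, edgeR), and Nqo1 was not past the threshold (adjusted p = 0.179, and 0.465 without knockout replicate 3). It was past it without knockout replicate 2 (adjusted p = 0.0313) and with DESeq2 (0.0225). Nqo1 (ENSMUSG00000003849) is on the minus strand of chromosome 8, 107388225 to 107403206.

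Gpx2, the glutathione peroxidase of the gut epithelium, stood at 105.2, 135.2 and 129.0 CPM in the knockout replicates, against 251.2, 203.3 and 119.7 CPM in the control replicates. Control replicate 3 lay among the knockout libraries. The log2 fold change was -0.64 ± 0.28 (SE, edgeR, adjusted p = 0.332), and ran from -0.89 without control replicate 3 to -0.40 without control replicate 1. Gpx2 (ENSMUSG00000042808, chromosome 12, 76792335 to 76795554) lies inside Fntb on the opposite strand. The sources used here do not say whether counting used strand. Fntb had 10.7% as many reads as Gpx2 over all 6 libraries.

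Txnrd1, the cytosolic thioredoxin reductase, had the smallest fold change of the 10. It stood at 208.5, 317.1 and 254.3 CPM in the knockout replicates, against 290.6, 299.6 and 309.9 CPM in the control replicates. Knockout replicate 2 was above and replicates 1 and 3 below the control range. The log2 fold change was -0.21 ± 0.18 (SE, edgeR, adjusted p = 0.651). Txnrd1 (ENSMUSG00000020250) is on chromosome 10, 82859206 to 82897724.

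Colonocyte markers were lower in knockout replicate 1 than in any other library. The summed level of 10 such genes was 5615.6, 13573.8 and 9785.4 CPM in the knockout replicates and 13815.3 to 14889.2 CPM in the control libraries. EdgeR called 0 of them, DESeq2 3 (8.11% of all genes) and limma 0, and 3 were below an unadjusted p of 0.05 (16.0% of all genes). Per 1000 CPM of these markers, Nqo1 stood at 1.06, 2.04 and 1.82 CPM in the knockout replicates, against 3.22, 3.26 and 4.65 CPM in the control replicates, without overlap. Gpx2 and Gclc overlapped between the groups on that scale, and Txnrd1 was higher in each knockout library (23.4 to 37.1 CPM, against 19.5 to 22.4 CPM in the control).

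**Figure D4:**
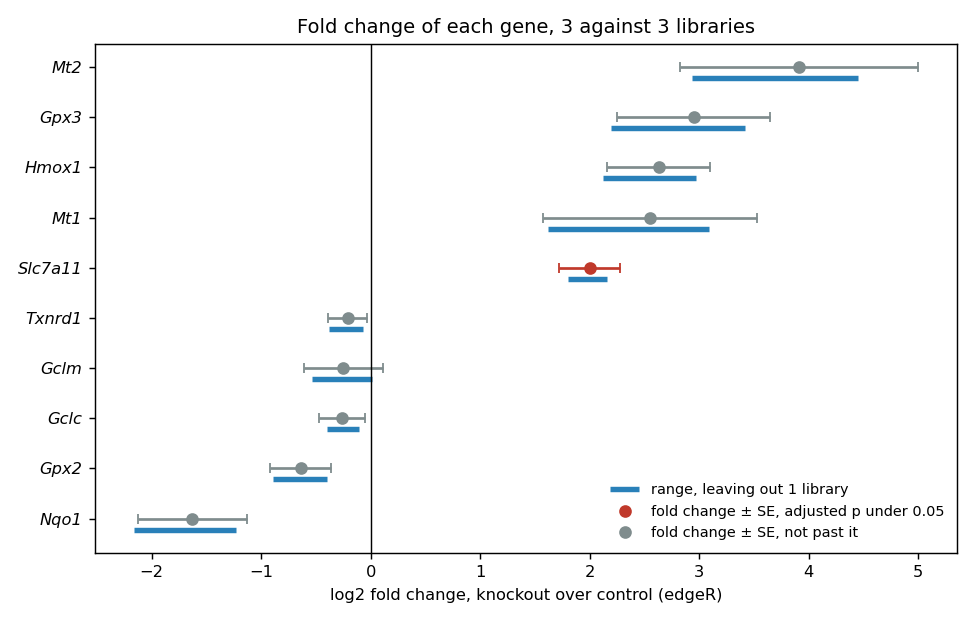
Log2 fold change of knockout over control for each gene, with its standard error (points and bars) and the range of the fold change when 1 of the 6 libraries is left out (blue lines). Slc7a11 has the single adjusted p under 0.05 and a range of 1.8 to 2.16; Mt1 has one of 1.62 to 3.09, and only that of Gclm crosses 0.

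Per length, the order of the 10 genes differed between the groups. In the knockout libraries the FPKM averaged 978.3 for Mt2, 759.7 for Mt1, 180.5 for Gpx3, 117.8 for Gpx2, 77.3 for Txnrd1 and 31.8 for Gclc. Hmox1 (13.9), Nqo1 (11), Gclm (8.73) and Slc7a11 (0.796) came below. In the control libraries the order was Gpx2 (174.4 FPKM), Mt1 (117.9), Txnrd1 (85.5), Mt2 (59.1), Gclc (36.4), Nqo1 (33.3), Gpx3 (21.3), Gclm (10), Hmox1 (2.07) and Slc7a11 (0.186). In the knockout, the libraries of neighbours overlapped from Mt2 through Gpx2, and from Hmox1 through Gclm. In the control they overlapped from Gpx2 through Nqo1. On average both metallothioneins led the set in the knockout and Gpx2 led it in the control. In knockout replicate 2 Gpx2 was highest at 119.5 FPKM, and in control replicate 3 Mt1 was highest at 125.1 FPKM, against 109.4 FPKM for Gpx2.

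Of 117 different genes tested in 10 lists of zinc, NRF2, glutathione, thioredoxin, superoxide, selenium, heme and iron handling, 4 were past the threshold (edgeR, adjusted p under 0.05): Mt3, Steap4 and Slc11a1 rose and Akr1b8 fell. That is 3.42% of the list genes, beside 1.76% of all genes; DESeq2 called 15 of 120 (12.5%), beside 8.11% of all genes. The lists were chosen with earlier results known, and the difference was not tested. Without knockout replicate 3, edgeR called 0 genes of these lists and 0 of the marker lists. Of 12 controllers of NRF2, 0 were past it (0 by DESeq2, 0 by limma, 0 below an unadjusted p of 0.05), with a median log2 fold change of -0.05. Nfe2l2, which encodes NRF2 itself, stood at 218.5 ± 77.5 CPM in the knockout and 276.2 ± 61.4 CPM in the control (SD, n = 3 each). Sqstm1, an autophagy receptor that binds KEAP1, stood at 270.1 ± 41.2 CPM in the knockout and 275.9 ± 29.9 CPM in the control.

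Of 20 other NRF2 targets, edgeR called 1 lower and 0 higher, beside 0.67% of all genes called lower and 1.09% higher. DESeq2 called 4 lower, beside 8.11% of all genes in either direction, and limma 1 lower, beside 1.52%. An unadjusted p below 0.05 was found for 4 of the 20, and for 16.0% of all genes. The median log2 fold change was -0.26 and 14 of 20 were negative, as were 7651 of all 15819 genes. Akr1b8, an aldo-keto reductase, stood at 33.2, 38 and 34.2 CPM in the knockout replicates, against 112.7, 94.7 and 68.4 CPM in the control replicates. Its knockout libraries were close together and below all controls. The log2 fold change was -1.39 ± 0.20 (SE, edgeR, adjusted p = 0.0312). It was not past the threshold without knockout replicate 3 or any 1 control replicate.

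Glutathione and thioredoxin genes beyond the 10 had no member past the threshold. Of 18 genes of glutathione supply and use, 0 were called by edgeR, DESeq2 or limma (1 at an unadjusted p under 0.05), with a median of 0.04. Gpx1, the ubiquitous glutathione peroxidase, stood at 273.7, 240.6 and 269.3 CPM in the knockout replicates, against 83.0, 192.7 and 196.1 CPM in the control replicates. Its groups did not overlap, as for 21.6% of all genes tested (edgeR adjusted p = 0.339). Of 12 thioredoxin and peroxiredoxin genes, 0 were called by the same 3 tools (1 at an unadjusted p under 0.05), with a median of -0.14. Prdx6, the most abundant of them, stood at 1335.8 ± 436.9 CPM in the knockout and 1604.7 ± 408.1 CPM in the control. Of 4 superoxide dismutase and catalase genes, edgeR called 0, DESeq2 2 and limma 0, and 2 were below an unadjusted p of 0.05. Over all genes, DESeq2 called 8.11% and 16.0% were below that unadjusted p. Sod2, the mitochondrial dismutase, stood at 242.6, 106.4 and 175.1 CPM in the knockout replicates, against 81.4, 99.3 and 82.0 CPM in the control replicates.

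None of the heme genes, Hmox1 included, was past the threshold by edgeR, and 2 iron genes rose. Of 8 tested genes of heme breakdown and export, edgeR called 0, DESeq2 1 and limma 0, and 2 were below an unadjusted p of 0.05. Por, the cytochrome reductase that gives electrons to heme oxygenase, stood at 117.7 ± 3.75 CPM in the knockout and 178.0 ± 8.1 CPM in the control (edgeR adjusted p = 0.0683). Of 8 tested genes of heme synthesis, 0 were called by any of these tools, and 1 was below an unadjusted p of 0.05. Alas1, the first enzyme of that pathway, stood at 117.4 ± 37.5 CPM in the knockout and 175.8 ± 20.1 CPM in the control. Of 15 tested iron genes, edgeR called 2 higher and 0 lower, DESeq2 4 higher and limma 1 higher, and 4 were below an unadjusted p of 0.05. Their median log2 fold change was 0.11, with 9 positive and 6 negative. Beside these iron and heme counts, edgeR called 1.09% of all genes higher and 0.67% lower. DESeq2 called 8.11% and limma 1.52% of all genes in either direction, and 16.0% were below an unadjusted p of 0.05.

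Steap4, a metalloreductase of iron and copper, stood at 331.8, 263.4 and 288.8 CPM in the knockout replicates, against 29.5, 62.3 and 27.5 CPM in the control replicates. The log2 fold change was 2.89 ± 0.35 (SE, edgeR, adjusted p = 0.022). Its knockout libraries were all far above the controls, replicate 2 included. Slc11a1, the iron and manganese exporter of macrophage phagosomes, stood at 11.3, 6.57 and 11.5 CPM in the knockout replicates, against 1.98, 1.16 and 1.58 CPM in the control replicates (edgeR adjusted p = 0.0252). Neither was past the threshold without knockout replicate 3, and without single controls Steap4 was past it in 1 of 3 fits and Slc11a1 in 0. The ferritin chains Fth1 and Ftl1, which store iron and were named after their values were seen, had log2 fold changes of 0.30 and -0.34 (edgeR adjusted p = 0.735 and 0.462). Of 15 tested selenium genes, edgeR called 0, DESeq2 2 and limma 0, and 4 were below an unadjusted p of 0.05. Over all genes, DESeq2 called 8.11% and 16.0% were below that unadjusted p.

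**Figure D5:**
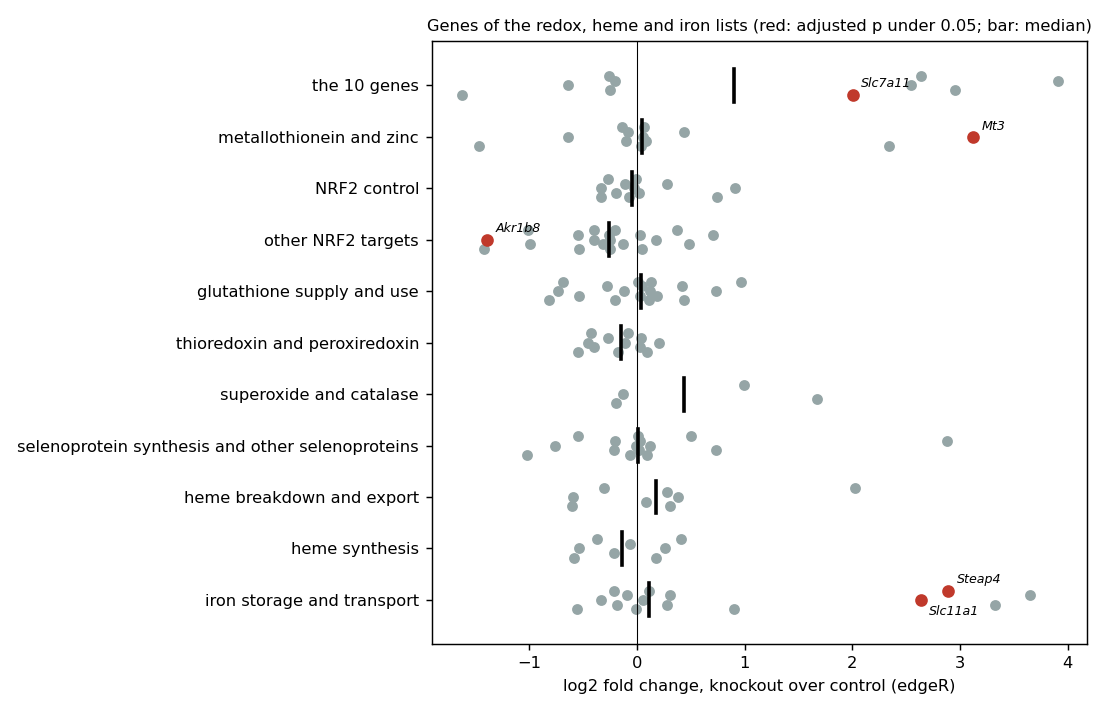
Log2 fold change of knockout over control for every tested gene of the 10 genes and of each list, with the median of the list as a black bar and genes at an adjusted p under 0.05 in red and named. List medians lie between -0.26 and 0.43, apart from 0.90 for the 10 genes, and 5 named genes are past the threshold. The 0.90 is no typical value of the 10, since 5 lie at 2.0 or above and 5 at -0.21 or below.

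Over the 6 libraries, the centred log2(CPM + 1) profiles most like those of 4 members were found among 10216 other genes with at least 10 CPM on average. For Mt1 they included Slc10a6, a carrier of sulfated steroids, and Adarb1, an RNA-editing enzyme, with root mean square differences of 0.308 and 0.398 log2 units. For Hmox1 they were C1ra, a complement protease (0.124), Serpina3g, a protease inhibitor (0.145), and Angptl4, an inhibitor of lipoprotein lipase (0.166). C1ra stood at 183.4, 47.4 and 108.3 CPM in the knockout replicates, against 19.0, 18.3 and 21.8 CPM in the control replicates. For Nqo1 they included Ces2c, a carboxylesterase (0.105), and Gpt, an alanine aminotransferase (0.145). For Gpx2 they were Garem (0.0816), Parp12 (0.0883) and Txn1, the thioredoxin that Txnrd1 reduces (0.121).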

How the data were processed

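Colon tissue was frozen and its total RNA taken with a column kit, per the labels' protocols. The table deposited by the authors holds, for every gene and library, whole-number read counts and FPKM values (scaled for transcript length and library total), per the file headers. Of tools, HISAT2 2.0.4, StringTie 1.3.0 and edgeR are named, and of builds GRCh38 and mm8, per the submitters' processing notes. Coordinates in the table match neither: of 34344 identifiers found in GENCODE M21 (GRCm38), 80.8% had the same start and end. The sources used here do not give the counting, its strand or its handling of shared reads. The design text says duplicate, but 3 libraries per group were found.

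Counts were tested with edgeR 4.0.16 in R 4.3.3: TMM, edgeR's filter, quasi-likelihood test without a replicate block, two-sided, Benjamini-Hochberg over all 15819 genes, threshold 0.05. Standard errors were derived from the test statistic. CPM values use TMM library sizes, on which 3 counts are 0.174 to 0.219 CPM. The alternatives tried were limma 3.58.1 on log2(FPKM + 1) and log2(FPKM + 0.1), DESeq2 1.42.0, RLE factors, all genes unfiltered, each library left out and a replicate block. The fit was tested on simulated data. Members, lists and rules were chosen with earlier results of these data known. Named genes are the 10 members, called genes of each list or else its 2 most abundant, and the nearest profiles of Mt1, Hmox1, Nqo1 and Gpx2; others are said to be chosen after their values were seen. Of these nearest profiles, 2 that carry clone names are not named. Of 16 listed selenium genes, 15 were found, 8 symbols in all lists being matched through RefSeq synonyms.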

Additional observations from a re-analysis of the deposited data

How the results depend on the processing

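The number of genes past the threshold depended on the test and on single libraries. Over all genes it was 278, against 1448 with DESeq2, and 15 to 1825 when 1 library was left out. Among the 10 members it was 1, against 6 with DESeq2, 2 with no filter on low counts and 0 with limma on log2(FPKM + 1), and 0 to 6 when 1 library was left out. The highest of each came without knockout replicate 2. Among the other pathway genes it was 4, against 15 with DESeq2 and 2 with limma on log2(FPKM + 1), and 0 to 19 when 1 library was left out. RLE factors and limma on log2(FPKM + 0.1) kept these 3 counts within 1.5 times, with Mt3 no longer called in either. The replicate block gave 9 genes over all, 0 members and 0 pathway genes. Whether the replicate numbers pair the samples is not known. Deviations from the group means correlated at 0.054, -0.175 and 0.014 across genes between libraries of the same number, and at -0.205 to 0.197 between those of different number. With 3 libraries per group, deviations from a group mean depend on each other, so these values cannot exclude pairing. Of 120 single-gene comparisons with alternatives, 2 changed sign, both for Gclm, whose log2 fold change ran from -0.54 to 0.00854 when 1 library was left out and was 0.00437 without control replicate 3. Slc7a11 kept its sign throughout and was past the threshold in 6 of 12 alternatives. The causes were not tested. With 44 to 62 reads per control library, Slc7a11 has the least depth of the 10.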

Other observations

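Acute-phase and selenium-binding genes showed patterns that the account of the 10 genes did not cover; all were named after their values were seen. Hp, haptoglobin, which binds free hemoglobin, had 400, 38.6 and 192.5 CPM in the knockout replicates, against 19.2, 26.6 and 4.38 CPM in the control replicates. Cp, the copper ferroxidase ceruloplasmin, stood at 155.6, 22 and 82.3 CPM in the knockout replicates, against 9.95, 9.54 and 6.5 CPM in the control replicates. The groups did not overlap for either gene, as for 21.6% of all genes tested, and both had the order of knockout libraries seen for Hmox1 and Gpx3. Neither was past the threshold (edgeR, adjusted p = 0.134 and 0.0726).

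Selenbp1 and Selenbp2, close relatives for which the sources used here do not say how shared reads were counted, had opposite signs. Selenbp1 stood at 274.9, 534.7 and 397.1 CPM in the knockout replicates, against 718.7, 690.5 and 1035.5 CPM in the control replicates. Selenbp2 stood at 9.31, 41.4 and 28 CPM in the knockout replicates, against 1.67, 3.41 and 5.59 CPM in the control replicates. Neither gene's groups overlapped, as for 21.6% of all genes tested, and both genes were highest among knockout libraries in replicate 2. Their log2 fold changes were -1.02 ± 0.29 and 2.88 ± 0.65 (SE, edgeR, adjusted p = 0.157 and 0.0873).

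Of the remaining marker lists, edgeR called 0 of 7 tested goblet cell, 0 of 6 crypt epithelium, 0 of 7 adipocyte and 0 of 2 squamous epithelium genes. DESeq2 called 0, 1, 2 and 0 of these and limma 0 of each list, and 0, 1, 4 and 0 were below an unadjusted p of 0.05. Over all genes, DESeq2 called 8.11% and 16.0% were below that unadjusted p. Goblet markers summed to 3571.9, 15339.3 and 9753.7 CPM in the knockout replicates, and to 5528.5 to 9637.2 CPM in the control libraries, so that knockout replicate 1, with the highest metallothionein levels, had the lowest goblet sum of the 6 libraries and knockout replicate 2 the highest.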
